A study of Mus musculus with 17 samples.

Results

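The recovery of mouse hematopoietic stem and progenitor cells from a single exposure to lipopolysaccharide (LPS, a component of bacterial cell walls) was compared with and without blockade of the interleukin-10 receptor (IL-10R). The comparison is 1 interaction contrast: the change from 24 h to 72 h with the antibody minus the change from 24 h to 72 h without it. It used 12 of the 17 RNA-seq libraries, chosen by their labels alone, with 3 libraries in each of 4 groups. The mice were wild-type C57BL/6J, an inbred strain, and their bone marrow was harvested 24 h or 72 h after intraperitoneal LPS, given alone or together with a blocking antibody to IL-10R. Every mouse of these 4 groups had LPS, and no group given the antibody alone or a control antibody is analysed here. The remaining 5 libraries came from mice given phosphate-buffered saline (PBS, titled day 0) and served as the unexposed reference. The amounts, 5 for LPS and 100 for the antibody, are in micrograms in the series' design text and in milligrams in the sample protocol, and neither was taken as correct. The surface markers of the sort are not given in the sources used here, nor are the age and sex of the mice, nor whether cells of several mice were pooled.

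Interleukin-10 is an anti-inflammatory cytokine. It binds a receptor made of a ligand-binding chain (Il10ra) and a chain shared with related cytokines (Il10rb), and the receptor acts through the kinase JAK1 and the transcription factor STAT3 to restrain inflammatory gene expression. Blood stem and progenitor cells sense LPS directly through TLR4 and indirectly through cytokines of other marrow cells. On inflammation they leave quiescence, raise protein and nucleotide synthesis and lean towards myeloid output, and when the stimulus ends they are known to return towards rest.

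Library depth was 10516722 to 16006001 counts, and 14920 of 35321 genes passed the filter on low counts. All 11 listed markers of hematopoietic stem and progenitor cells, among them Kit, Ly6a and Cd34, were detected in each of the 17 libraries, with a summed level of 1777 to 3269 CPM (counts brought to a common adjusted library total). Library 1 of LPS at 24 h differed in composition from the rest, with a scaling factor of 0.799 against 0.947 to 1.12 in the other libraries. The antibody libraries numbered 1 and 3 also stood apart at both times. Summed over 29 interferon-response genes, antibody libraries 1, 2 and 3 held 4921, 1437 and 655.7 CPM at 24 h and 6288, 1099 and 704.8 CPM at 72 h, against 868.5 to 1905 CPM in the 6 libraries given LPS alone. Summed over 19 erythroid markers they held 3703, 1463 and 281.3 CPM at 24 h and 2319, 531.8 and 292.3 CPM at 72 h. The labels do not say what, if anything, same-numbered libraries have in common. They also do not say that libraries came from separate mice, so p-values measure only the spread between these libraries. In sorted bulk cells, fewer cells of a type and less RNA per cell cannot be told apart.

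Many genes changed between 24 h and 72 h without the antibody, and none was called with it. With LPS alone 4646 genes passed the test (31.1% of those tested), 2192 higher and 2454 lower at 72 h. With LPS and antibody 0 genes passed by edgeR's quasi-likelihood test (Benjamini-Hochberg adjusted p under 0.05). There 635 genes had an unadjusted p under 0.05, 4.26% of those tested, and the smallest adjusted p was 0.918. Differences between antibody libraries that recurred at both times count as spread in this fit. A missed call thus does not show that a gene was unchanged. DESeq2's Wald test called 2 genes over time with the antibody. They were Enc1 and BC018473. BC018473 was at 0 CPM in all 3 antibody libraries at 24 h and measured 141, 18.6 and 0 CPM at 72 h, so it was present in 2 of those 3 libraries.

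The difference between the 2 changes, tested directly as the interaction, passed in 947 genes (6.35%), against 3616 (24.2%) at an unadjusted p under 0.05. A positive interaction was called in 601 genes (4.03%) and a negative one in 346 (2.32%). The higher side made up 63.5% of the calls, or 49.7% of 875 calls with upper-quartile scaling, which moved the median interaction of all genes from 0.01 to -0.09 on the log2 scale. Among the 601 genes the median log2 change over time was -0.99 without the antibody and -0.01 with it. Among the 346 genes these medians were 1.44 and -0.06. Both sets were chosen on the difference between the 2 changes, so these medians are a description. Read the other way, the antibody effect was called at 72 h and not at 24 h: it passed in 0 genes at 24 h by edgeR (273 at an unadjusted p under 0.05, and 1 by DESeq2) and in 2256 genes (15.1%) at 72 h, 1289 higher (8.64%) and 967 lower (6.48%). The calls for the antibody effect at 72 h numbered 769 and 1193 without LPS libraries 1 and 2 at 72 h and 1417 without antibody library 1 at 72 h. The number of interaction calls rested on single libraries. It was 576 without LPS library 3 at 24 h, 231 and 473 without LPS libraries 1 and 2 at 72 h, 376, 1544 and 291 without antibody libraries 1, 2 and 3 at 24 h, and 513 without antibody library 3 at 72 h. In a fit of only the 12 LPS libraries it was 286. It was 336 without both antibody libraries numbered 1 and 7 without both numbered 3. All 947 genes had the same sign in each of those leave-out fits, and so had the 941 of them that were tested in the fit of 12 libraries. These genes were chosen on the same contrast and the fits share most of their libraries, so the kept signs are no separate support.

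**Figure D1:**
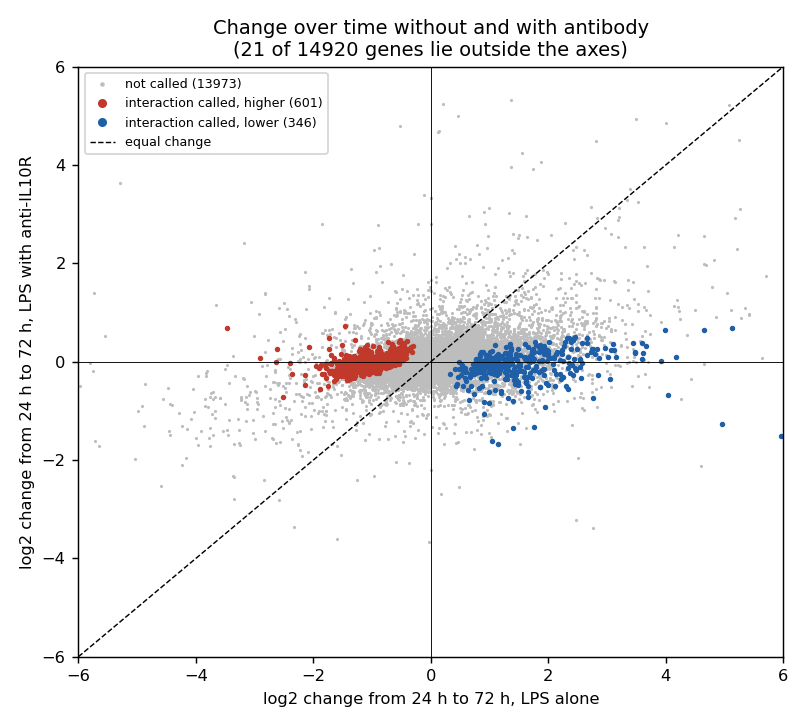
Each point is 1 of 14920 genes, with its log2 change from 24 h to 72 h after LPS alone on the horizontal axis and after LPS with the antibody on the vertical axis, and 21 genes lie outside the axes. The 601 genes with a higher interaction (red) and the 346 with a lower interaction (blue) spread along the horizontal axis and stay near 0 on the vertical axis, whose medians for them are -0.01 and -0.06.

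Whether the antibody reversed recovery or only reduced it was read from the 4646 genes that changed with LPS alone, a contrast of LPS libraries only. The antibody libraries entered that choice through the shared estimate of the spread, and 3438 genes changed in the fit of 12 libraries, 5037 without antibody library 1 at 72 h and 3199 without LPS library 1 at 72 h. In the antibody groups 3317 of them (71.4%) moved in the same direction as recovery and 1329 moved the other way. None passed the test in either direction by edgeR, and at an unadjusted p under 0.05 the same direction held 191 genes and the opposite direction 26. Over all 14920 tested genes 635 (4.26%) reached that level, and the share among the recovery genes was near it. DESeq2 called 1 opposite movement. The median change with the antibody was 0.123 of the change without it (quartiles -0.0289 and 0.285), and the ratio was over 0.5 in 332 genes. Taken against the mean of the 24 h antibody libraries, the 72 h antibody libraries 1, 2 and 3 gave ratios of 0.117, 0.207 and 0.0429 (SD 0.0822). Each of the 3 was above 0 and far below 1. The 3 ratios share the same 24 h antibody mean and the same LPS change, so they are not separate estimates. Their SD leaves out the spread of those libraries. The genes were chosen for a called change with LPS alone, which can enlarge that change and lower the ratio. The 2192 genes that rose with LPS alone by a median of 1.17 on the log2 scale had a median of 0.15 with the antibody, and the 2454 that fell had medians of -0.78 and -0.10. The ratio was 0.022 without antibody library 2 at 24 h, where 53.4% of the genes moved in the direction of recovery, and 0.235 without both antibody libraries numbered 3. No reversal was thus called in the main test, and the movement seen was a small part of the recovery. With no time after 72 h, a slower recovery and a recovery that had stopped cannot be told apart.

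The same was seen for each library on a scale set by the groups without the antibody. The position is the mean over the 5616 genes that differed between LPS at 24 h and PBS (37.6%), signed by that difference and scaled so that the LPS 24 h mean is 0 and the PBS mean is 1. Without LPS library 1 at 24 h, 3361 genes differed. The LPS libraries 1, 2 and 3 at 72 h lay at 0.969, 0.775 and 0.854, within or just below the range of the PBS libraries (0.823 to 1.15). The antibody libraries lay at 0.305, 0.0475 and 0.259 at 24 h and at 0.351, 0.556 and 0.207 at 72 h. The group means were 0.204 ± 0.137 (SD, n = 3) and 0.371 ± 0.175 (SD, n = 3), and the antibody groups of the 2 times overlapped. The 72 h antibody libraries did not overlap the 72 h LPS libraries, at 0.866 ± 0.0973 (SD, n = 3). The highest antibody library was library 2, and it was still below the lowest LPS library at 72 h.

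**Figure D2:**
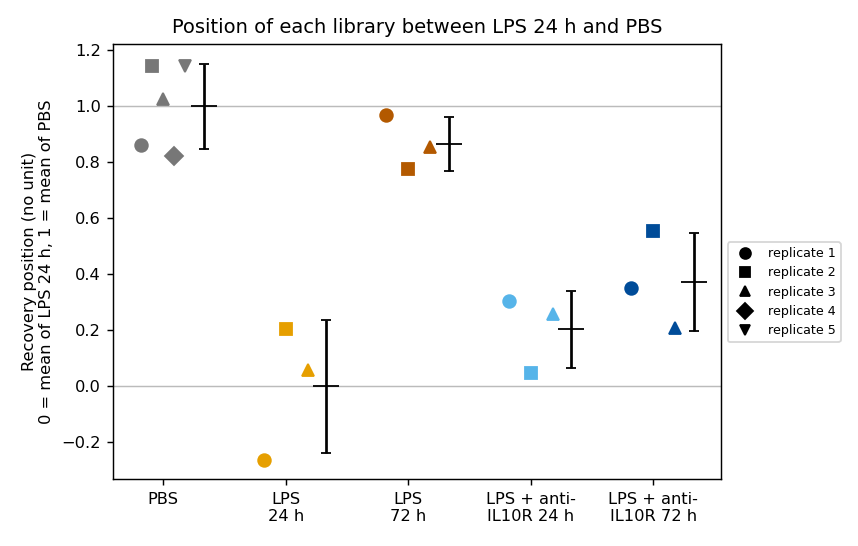
Recovery position of each of the 17 libraries, where 0 is the mean of LPS at 24 h and 1 the mean of PBS (no unit), with group means and SD drawn beside the points. The 3 antibody libraries at 72 h lie between 0.207 and 0.556 and overlap those at 24 h, whereas the 3 LPS libraries at 72 h lie between 0.775 and 0.969.

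The machinery that makes ribosomes stayed raised with the antibody. Of 23 listed ribosome biogenesis genes, all 23 of which were tested, 20 passed with a higher interaction and 0 with a lower one, against 4.03% and 2.32% of all genes. The list's median interaction was 1.21 on the log2 scale, against 0.01 over all genes. Relative to the PBS mean its median gene stood at 0.98 with LPS at 24 h and -0.31 with LPS at 72 h. With the antibody it stood at 0.70 at 24 h and 0.67 at 72 h, so the list's raised level was held. The antibody effect at 72 h was called higher in 21 of the 23 genes, against 8.64% of all genes. Ncl, which encodes nucleolin, a main protein of the nucleolus (GRCm38 chr1:86344719-86359400), measured 4340, 3100 and 3180 CPM with LPS at 24 h and 1300, 1320 and 1260 CPM at 72 h. With the antibody it measured 2490, 3320 and 2490 CPM at 24 h and 3230, 2920 and 3010 CPM at 72 h. The 72 h LPS libraries were just below the PBS range of 1350 to 1830 CPM, and the other 9 libraries given LPS were above it. The interaction of Ncl was 1.59 (SE 0.234, edgeR adjusted p = 0.00831).

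Nolc1, a chaperone of small nucleolar RNA complexes, measured 139, 141 and 161 CPM with LPS at 72 h and 415, 399 and 393 CPM with the antibody, with an interaction of 1.68 (SE 0.282, edgeR adjusted p = 0.00831). Gnl3, the nucleolar GTPase nucleostemin, measured 89.5, 118 and 123 CPM against 239, 249 and 223 CPM at 72 h, with an interaction of 1.24 (SE 0.215). Npm1, nucleophosmin, was among the weakest calls, at 1.00 (SE 0.279, edgeR adjusted p = 0.0452). The 3 members that did not pass were Nip7 (1.17), Rrp9 (1.17) and Fbl (0.71), all with positive values. Outside the list, Lyar, another nucleolar protein, was among the 10 largest positive interactions of well expressed genes, meaning those with a mean level at or above the median of tested genes (1.75, SE 0.305). Snhg3, a host transcript of small nucleolar RNAs, was another (1.98, SE 0.392). Snhg3 overlaps Rcc1 on its own strand and Gm17300 on the opposite strand, and Gm17300 had an interaction of 1.84 (SE 0.389). Reads of the 3 genes cannot be told apart, since the strandedness of the counting is not given in the sources used here. For the ribosomal proteins themselves, of 30 listed 0 passed by edgeR (0 higher and 1 lower at an unadjusted p under 0.05), 28 had negative values, and the median was -0.34. Their summed level varied between libraries of a group. It was 84800, 46610 and 51270 CPM with LPS at 24 h and 80760, 75550 and 49780 CPM at 72 h. With the antibody it was 62220, 47820 and 57750 CPM at 24 h and 51000, 48900 and 49420 CPM at 72 h.

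Calls in the ribosome biogenesis list numbered 14 without LPS library 1 at 24 h, 9 without LPS library 1 at 72 h and 12 in the fit of 12 libraries. They numbered 12 without both antibody libraries numbered 1 and 0 without both numbered 3. Erythroid markers moved in the same direction over time and varied between libraries: 16 of 19 had a positive interaction and 0 passed, with a median of 1.89, or -0.32 without antibody library 1 at 72 h. Their summed level was 860.1 to 1951 CPM with LPS at 24 h and 174.7 to 484.6 CPM at 72 h, and with the antibody 281.3 to 3703 CPM and 292.3 to 2319 CPM. The mean log2 level of the ribosome biogenesis list relative to PBS was 0.72, 0.67 and 0.69 in antibody libraries 1, 2 and 3 at 72 h, and that of the erythroid markers was 0.78, -1.33 and -4.39.

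Amino acid supply and the response to amino acid shortage formed the second group. This response works through the factor ATF4, which binds a composite DNA element known as the C/EBP-ATF response element, with the core TGATGNAA. Of 24 listed genes, all tested, 13 passed with a higher interaction and 0 with a lower one, against 4.03% and 2.32% of all genes. The median was 1.06. The element was searched on both strands in the RefSeq promoters (GRCm38.p6, 250 bases before to 50 after each gene's start), and 20 of the 24 genes had an entry. It was present in 6 of the 20 (30.0%), namely Asns, Trib3, Chac1, Slc7a11, Aars and Gars, against 4.51% of all 27025 promoters in the table and 2.82% of 10853 promoters of tested genes. It can share the letters TG with the other motif searched below, CACGTG. A match describes the letters only and is not a binding site. The list was made of genes of this response, so the raised share of the element is no separate support. The other genes of the 13 that passed had no match or no promoter entry, so most calls came without a match. The 250 bases before the start are shown for the 4 genes with a match that passed, 5′ to 3′ on the gene's strand. They were chosen for passing, so their shared direction is a description. Capitals mark the match, on either strand, which begins 23 bases before the start of Asns, 193 before Chac1, 112 before Aars and 30 before Gars. Aars has a further match after its start, within the searched window and outside the bases shown. The windows are chr6:7693210-7693459 (minus strand) for Asns, chr2:119350992-119351241 (plus) for Chac1, chr8:111033592-111033841 (plus) for Aars and chr6:55037751-55038000 (plus) for Gars.
Asns: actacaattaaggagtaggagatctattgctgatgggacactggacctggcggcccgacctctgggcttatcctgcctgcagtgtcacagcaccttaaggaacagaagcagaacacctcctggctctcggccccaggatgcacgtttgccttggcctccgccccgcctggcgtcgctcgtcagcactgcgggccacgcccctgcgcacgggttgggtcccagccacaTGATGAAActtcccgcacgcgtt
Chac1: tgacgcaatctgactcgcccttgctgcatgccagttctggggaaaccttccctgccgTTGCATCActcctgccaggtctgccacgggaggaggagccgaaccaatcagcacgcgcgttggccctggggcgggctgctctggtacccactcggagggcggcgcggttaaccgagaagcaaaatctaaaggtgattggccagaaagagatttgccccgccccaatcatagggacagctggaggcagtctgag
Aars: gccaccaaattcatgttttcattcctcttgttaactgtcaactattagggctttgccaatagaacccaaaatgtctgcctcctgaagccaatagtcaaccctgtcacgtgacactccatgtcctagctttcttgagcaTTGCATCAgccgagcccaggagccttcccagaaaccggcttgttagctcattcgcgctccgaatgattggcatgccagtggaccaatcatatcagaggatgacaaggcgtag
Gars: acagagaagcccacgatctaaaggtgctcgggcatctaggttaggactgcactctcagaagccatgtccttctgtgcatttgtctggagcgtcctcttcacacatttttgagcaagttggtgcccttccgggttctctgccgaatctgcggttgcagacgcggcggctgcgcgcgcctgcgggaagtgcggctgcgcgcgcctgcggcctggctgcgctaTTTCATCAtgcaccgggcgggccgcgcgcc

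Asns, asparagine synthetase (GRCm38 chr6:7675169-7693254), had the largest positive interaction among well expressed genes. It measured 113, 63.6 and 91.7 CPM with LPS at 24 h and 14.4, 27.1 and 10.3 CPM at 72 h. With the antibody it measured 144, 82.2 and 45.1 CPM at 24 h and 102, 54.1 and 71.9 CPM at 72 h. The antibody libraries of both times were above every PBS library (18.4 to 36.4 CPM), while 2 of 3 LPS libraries at 72 h were below all of them. Its interaction was 2.12 (SE 0.576, edgeR adjusted p = 0.0421), and on leaving out 1 library at a time it fell short in 8 of the 12 fits, with adjusted p from 0.0303 to 0.111.

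Slc7a5, the large neutral amino acid transporter LAT1 (GRCm38 chr8:121881150-121907694), was the steadier member. It measured 292, 257 and 294 CPM with LPS at 24 h, 76.5, 77.3 and 91.5 CPM at 72 h, and with the antibody 228, 345 and 194 CPM at 24 h and 248, 239 and 259 CPM at 72 h. The 72 h antibody libraries lay within the range of the 24 h ones, and its interaction was 1.74 (SE 0.283, edgeR adjusted p = 0.00831). Its partner chain Slc3a2 (1.14) and the cationic amino acid transporter Slc7a1 (1.45) also passed. So did the serine and one-carbon enzymes Psat1 (1.22), Phgdh (0.92), Shmt2 (1.02) and Mthfd2 (1.59). Chac1, a glutathione-degrading enzyme, passed at a low level (edgeR adjusted p = 0.0448): it measured 0.458, 0.423 and 0.219 CPM with LPS at 72 h and 1.85, 1.21 and 2.4 CPM with the antibody.

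Of the members with the element, Trib3 (-0.16) and Slc7a11 (2.45, edgeR adjusted p = 0.124) did not pass. Atf4 itself was at 0.92 (SE 0.351, edgeR adjusted p = 0.12) and Ddit3 at -0.28 (edgeR adjusted p = 0.816), so neither passed. The calls in this list numbered 9 without LPS library 1 at 24 h, 7 without LPS library 1 at 72 h and 9 in the fit of 12 libraries. They numbered 9 without both antibody libraries numbered 1 and 0 without both numbered 3.

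The aminoacyl-tRNA synthetases, which load amino acids on tRNA, are 1 of 8 lists added after the values had been seen. In it 16 of 37 passed higher and 0 lower, against 4.03% and 2.32% of all genes, with a median of 0.75. It shares members with the amino acid list, among them Gars and Nars, so the counts of these lists are not separate. Gars, for glycine, measured 113, 120 and 115 CPM with LPS at 72 h and 251, 221 and 281 CPM with the antibody, with an interaction of 1.32 (SE 0.212, edgeR adjusted p = 0.00831). Nars, for asparagine, had the same interaction, 1.32 (SE 0.219). Iars2, the mitochondrial isoleucine enzyme, was at 0.92 (SE 0.155, edgeR adjusted p = 0.00831). Vars, for valine, was at 0.27 (SE 0.221, edgeR adjusted p = 0.483) and did not pass. The calls numbered 8 without LPS library 1 at 72 h.

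**Figure D3:**
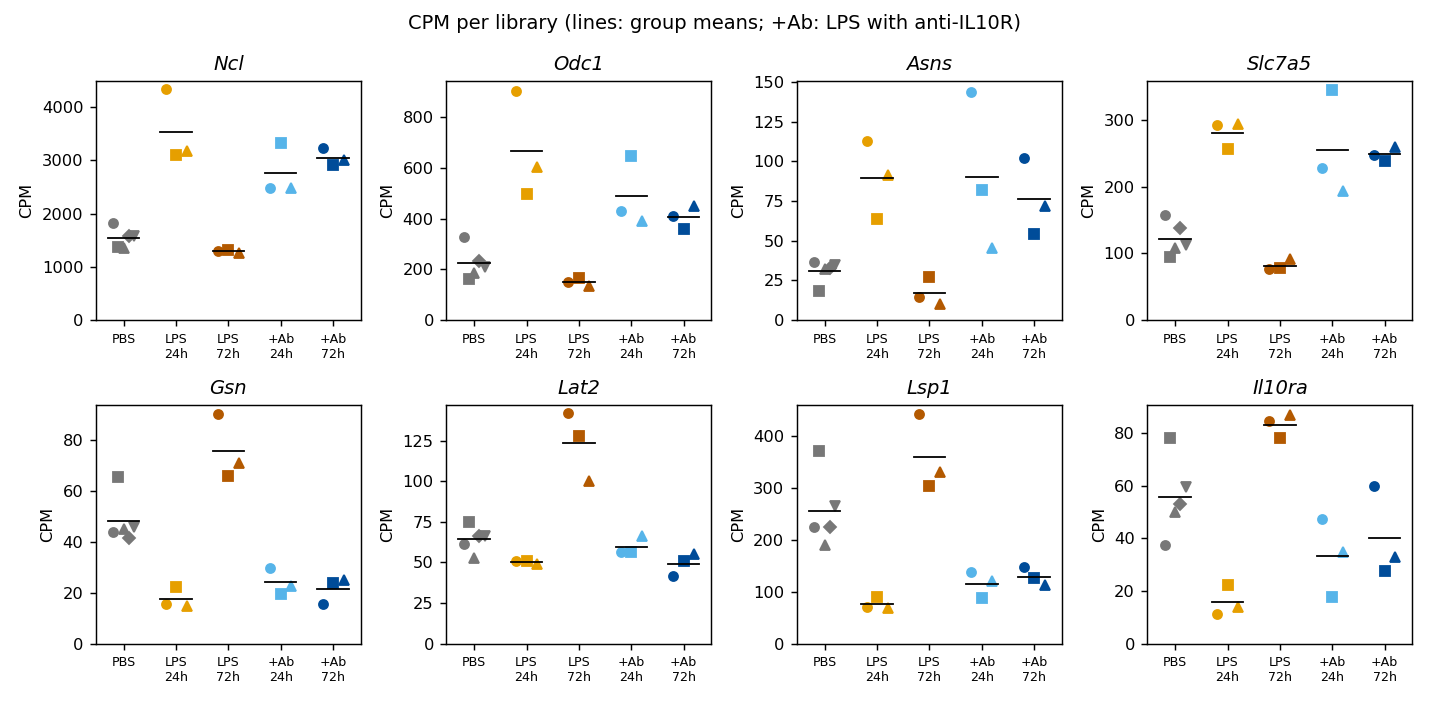
CPM of 8 genes in each of the 17 libraries, with a horizontal line at each group mean. In the upper row (Ncl, Odc1, Asns, Slc7a5) the LPS libraries fall from 24 h to 72 h and in the lower row (Gsn, Lat2, Lsp1, Il10ra) they rise without overlap, whereas the antibody libraries of both times overlap except for Lat2, and Ncl stays between 2920 and 3230 CPM with the antibody at 72 h against 1260 to 1320 CPM without it.

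Nucleotide synthesis, protein folding and protein breakdown had the same direction in lists that were also added after the values had been seen. Over all genes 4.03% passed higher and 2.32% lower, and each count here is set against these shares. Of 22 genes of nucleotide and one-carbon metabolism 12 passed higher and 0 lower (median 0.92). Some genes are in more than 1 list, such as Shmt2 and Mthfd2 here and in the amino acid list, so the counts are not separate. Gmps, GMP synthetase, measured 100, 107 and 110 CPM with LPS at 72 h and 199, 203 and 203 CPM with the antibody, with an interaction of 1.12 (SE 0.167, edgeR adjusted p = 0.00831). Paics, of the same purine pathway, was at 0.07 (edgeR adjusted p = 0.884). The cytosolic chaperonin CCT had 6 of 8 tested subunits higher and 0 lower (median 0.96), among them Cct8 (1.28, SE 0.264). The constitutive proteasome had 12 of 34 higher and 0 lower (median 0.74). Psmd1, a subunit of its cap, measured 137, 159 and 159 CPM with LPS at 72 h and 324, 272 and 295 CPM with the antibody, with an interaction of 1.15 (SE 0.171, edgeR adjusted p = 0.00831).

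Translation initiation had 16 of 53 tested genes higher and 0 lower (median 0.58), against 4.03% and 2.32% of all genes. Eif3j1 was at 1.34 (SE 0.234) and Eif4e, the cap-binding factor, at 0.98 (SE 0.189). Mitochondrial protein import had 6 of 23 higher (median 0.69), led by Tomm70a (1.09, SE 0.205), a receptor of the outer membrane. The mitochondrial ribosome had 4 of 78 higher (median 0.52), a share near that of all genes. Hspd1, the mitochondrial chaperonin HSP60, measured 1830, 1140 and 1160 CPM with LPS at 24 h, 338, 382 and 350 CPM at 72 h, and 839, 837 and 1300 CPM with the antibody at 72 h. Its interaction was 1.87 (SE 0.369, edgeR adjusted p = 0.0127), and it overlaps Hspe1 on the opposite strand. Ndufaf4, an assembly factor of respiratory complex I, was at 1.79 (SE 0.308, edgeR adjusted p = 0.00841), and Ak4, a mitochondrial adenylate kinase, at 1.85 (SE 0.396, edgeR adjusted p = 0.0157).

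The counts in these lists moved with single libraries. Without LPS library 1 at 24 h, the library with the low scaling factor, CCT calls fell from 6 to 2, proteasome calls from 12 to 6, mitochondrial import calls from 6 to 3 and mitochondrial ribosome calls from 4 to 1. Without LPS library 1 at 72 h they numbered 0, 4, 2 and 0, nucleotide synthesis calls numbered 4 and translation initiation calls 7. Without both antibody libraries numbered 3 each of these lists had 0.

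Growth and glycolysis genes moved less evenly. In the network of Myc, a factor that drives cell growth, 5 of 16 genes passed higher and 1 lower (median 0.63). Of all genes 4.03% passed higher and 2.32% lower. The higher ones were Eif4e, Odc1, Ldha, Cad (1.36) and Srm (1.68), which are effectors of growth. Eif4e, Ldha and Cad are also members of other lists described here. The lower one was Mxd4, a Max partner that opposes Myc, at -1.62 (SE 0.346, edgeR adjusted p = 0.0157). Myc itself measured 217, 219 and 232 CPM with LPS at 72 h and 387, 385 and 305 CPM with the antibody, and its interaction of 0.80 (SE 0.317, edgeR adjusted p = 0.135) did not pass. Odc1, which starts polyamine synthesis (GRCm38 chr12:17544794-17551505), measured 904, 495 and 602 CPM with LPS at 24 h and 149, 167 and 136 CPM at 72 h, against 430, 645 and 391 CPM and 412, 359 and 451 CPM with the antibody. Its LPS libraries did not overlap between the times and its antibody libraries did, and its interaction was 1.88 (SE 0.371, edgeR adjusted p = 0.0126). Without LPS library 1 at 72 h the Myc list had 3 higher calls, and without LPS library 1 at 24 h its median was 0.25.

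The motif CACGTG, the E-box bound by Myc and by other factors of its family, was present in 4 of 19 ribosome biogenesis promoters (21.1%) and 8 of 14 promoters of the Myc network list (57.1%), but in 1 of 20 of the amino acid stress list (5.0%). In the aminoacyl-tRNA synthetase list it was present in 5 of 27 (18.5%) and in the nucleotide list in 4 of 19 (21.1%). It was present in 8.09% of all promoters and 11.5% of those of tested genes, with the same windows and both strands. The Myc network list was made of Myc, its partners and its targets, so its share is no separate support. Its 8 genes were Max, Mxd4, Mnt, Mlx, Ldha, Eif4e, Eif4a1 and Nme1. Of these Ldha and Eif4e passed higher and Mxd4 lower. Odc1, Cad and Srm, which passed higher, had no match or no promoter entry. Binding by Myc was not tested.

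In glycolysis, against 4.03% and 2.32% of all genes, 2 of 17 genes passed higher and 0 lower (median 0.68). They were Ldha, lactate dehydrogenase, at 1.62 (SE 0.326, edgeR adjusted p = 0.0136) and Pgk1 at 1.00 (SE 0.253, edgeR adjusted p = 0.0314). Pkm was at 0.68 (edgeR adjusted p = 0.0798) and Pfkp at 1.16 (edgeR adjusted p = 0.0529). Slc16a1, the lactate and pyruvate transporter MCT1, measured 57.6, 74.9 and 70.9 CPM with LPS at 72 h and 151, 189 and 220 CPM with the antibody, with an interaction of 1.81 (SE 0.344, edgeR adjusted p = 0.0107). In oxidative phosphorylation 1 of 26 genes passed, a share near the 4.03% of all genes, namely the ATP synthase subunit Atp5b (0.85, SE 0.226), and the list's median of 0.27 became -0.13 without LPS library 1 at 24 h. The endoplasmic reticulum stress list also had a count near that background, with 1 of 18 genes higher, the chaperone Hspa5 (1.52, SE 0.431, edgeR adjusted p = 0.0474), a call lost in 8 of 12 leave-out fits. Yet 16 of its 18 values were positive, with a median of 0.785. At an unadjusted p under 0.05 by edgeR 10 of the 18 were higher, against 1958 of all 14920 genes.

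The genes with a negative interaction were, at their median, higher at 72 h than at 24 h with LPS alone and level with the antibody. The 10 largest among well expressed genes were Ahnak, Pld4, Gsn, Evl, Il10ra, Lsp1, Ccng2, Itgb7, Cnn3 and Rnase6, between -2.68 and -1.93. Gsn, gelsolin, which severs actin filaments (GRCm38 chr2:35256380-35307892), measured 15.7, 22.3 and 14.7 CPM with LPS at 24 h and 90, 65.7 and 71.1 CPM at 72 h. With the antibody it measured 29.9, 19.7 and 22.8 CPM at 24 h and 15.7, 23.8 and 25.1 CPM at 72 h. The 72 h LPS libraries were above every PBS library (41.4 to 65.5 CPM) and the antibody libraries were below every one. Its interaction was -2.27 (SE 0.33, edgeR adjusted p = 0.00831).

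Itgb7, the beta 7 integrin chain used in homing of leukocytes to the gut, measured 54.9, 69.8 and 46.8 CPM with LPS at 24 h, 181, 124 and 175 CPM at 72 h, and with the antibody 72.9, 68.1 and 73.7 CPM and 46.7, 41.3 and 67.1 CPM. Its antibody libraries at 72 h were all below those at 24 h, though that change did not pass, and its interaction was -1.96 (SE 0.325, edgeR adjusted p = 0.00831). Gsn and Itgb7 passed in each of the 21 alternative fits. Of the other 8, Evl, which promotes growth of actin filaments, was at -2.24 (SE 0.461), Lsp1, a leukocyte protein, at -2.07 (SE 0.332) and Cnn3, a calponin, at -1.95 (SE 0.519). The Cnn3 call did not survive 8 of the 12 leave-out fits. Ahnak, a very large scaffold protein (-2.68, SE 0.69), lost its call in 8 and Ccng2, cyclin G2, a cyclin linked to cell cycle arrest (-2, SE 0.497), in 9 of the 12.

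The gene with the smallest p of the interaction was Mirt1, a long non-coding RNA, picked out here after its values were seen. It measured 3.8, 5.15 and 4.98 CPM with LPS at 24 h and 33.4, 28.9 and 39.7 CPM at 72 h, and with the antibody 8.05, 5.7 and 8.37 CPM and 6.48, 8.87 and 7.85 CPM. The 24 h antibody libraries lay slightly above the 24 h LPS libraries, and the 72 h antibody libraries stayed at the same level. The interaction was -2.80 (SE 0.285, edgeR adjusted p = 0.000637), and Mirt1 overlaps 4833407H14Rik on the opposite strand. Lat2, an adaptor of immune receptor signaling named on the same footing, measured 142, 128 and 100 CPM with LPS at 72 h and 41.5, 51.2 and 55.2 CPM with the antibody, with an interaction of -1.57 (SE 0.215, edgeR adjusted p = 0.00831). It overlaps Rfc2 on the opposite strand.

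The receptor that the antibody blocks was itself in this group. Il10ra (GRCm38 chr9:45253837-45269149) measured 11.2, 22.2 and 14.1 CPM with LPS at 24 h and 84.5, 78.3 and 87 CPM at 72 h, above the PBS range of 37.6 to 78.1 CPM. With the antibody it measured 47.5, 17.6 and 35 CPM at 24 h and 59.9, 27.7 and 32.8 CPM at 72 h. The antibody libraries at 72 h were all below the LPS libraries at 72 h, and those at 24 h overlapped the LPS libraries. Its interaction was -2.12 (SE 0.508, edgeR adjusted p = 0.0258), and the antibody effect at 72 h alone did not pass (-1.05, edgeR adjusted p = 0.057). Il10rb measured 90.4, 93.8 and 91.7 CPM with LPS at 72 h and 33.6, 50.5 and 60.5 CPM with the antibody, with an interaction of -1.18 (SE 0.329, edgeR adjusted p = 0.0452). It overlaps Gm21970 on the same strand. Leaving out 1 library at a time, the Il10ra call was lost in 7 and the Il10rb call in 10 of 12 fits.

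Of 18 tested genes of the IL-10 and STAT3 axis, 12 had positive and 6 negative values (median 0.22). Among them 3 passed lower and 0 higher, against 2.32% and 4.03% of all genes. The third was Zfp36, a protein that marks inflammatory mRNAs for decay (-1.72, SE 0.471, edgeR adjusted p = 0.043), and its call was lost in 9 of 12 fits. Without LPS library 1 at 24 h, or without LPS library 1 at 72 h, the list had 0 calls. Stat3 was at 0.25 (SE 0.258), Socs3, its feedback inhibitor, at 0.48 (SE 0.554) and Jak1 at 0.08 (SE 0.203), none of which passed. Il10 was at the edge of detection, with 0 to 8 counts a library, and was not tested. Tlr4 (0.45) and Cd14 (0.76), which sense LPS, did not pass, nor did Myd88, the adaptor of Tlr4, at 0.84 (SE 0.259, edgeR adjusted p = 0.0645). The LPS-sensing list had 0 of 13 called by edgeR, with 3 higher and 1 lower at an unadjusted p under 0.05. Over all 14920 genes 1958 were higher and 1658 lower at that level.

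Genes of antigen presentation by MHC class II stayed lower with the antibody. Of 10 listed genes, all tested, 3 passed lower and 0 higher, against 2.32% and 4.03% of all genes, and all 10 had negative values (median -1.35). The median gene stood at -0.90 relative to PBS with LPS at 24 h and 0.35 at 72 h, and with the antibody at -0.69 and -0.67. H2-DMa, which loads peptides on class II molecules, measured 67.6, 82.5 and 69.4 CPM with LPS at 24 h, 256, 190 and 181 CPM at 72 h, and with the antibody 110, 65.7 and 105 CPM and 93.6, 95.5 and 76.3 CPM. All 3 of its 72 h LPS libraries were above every PBS library (123 to 165 CPM) and all antibody libraries below, and its interaction was -1.59 (SE 0.266, edgeR adjusted p = 0.00831). H2-Oa, which restrains that loading, was at -1.91 (SE 0.324, edgeR adjusted p = 0.00831) and H2-DMb1 at -1.10 (SE 0.292, edgeR adjusted p = 0.038).

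The abundant class II genes varied more. Cd74 measured 444, 161 and 153 CPM with the antibody at 72 h and 453, 177 and 122 CPM at 24 h, each time highest in library 1, against 445, 259 and 537 CPM with LPS at 72 h, and its interaction of -1.24 (SE 0.666, edgeR adjusted p = 0.27) did not pass. Of the class II list 4 genes were called without both antibody libraries numbered 1 and 0 without both numbered 3. Its median was -0.96 without antibody library 1 at 24 h.

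Myeloid regulators were mixed in sign, and their calls were lower. Of 17, 3 passed lower and 0 higher, against 2.32% and 4.03% of all genes. In the list 12 had negative and 5 positive values, and the median was -0.60. Itgam, the CD11b integrin chain, measured 20.3, 30.3 and 30.9 CPM with LPS at 24 h, 88.2, 88.1 and 127 CPM at 72 h, and 22.8, 44.2 and 53.5 CPM with the antibody at 72 h, with an interaction of -1.86 (SE 0.412, edgeR adjusted p = 0.0177). Tyrobp, a signaling adaptor of myeloid receptors, was at -1.89 (SE 0.48, edgeR adjusted p = 0.0322) and Csf1r, the receptor for the macrophage growth factor, at -1.50 (SE 0.423, edgeR adjusted p = 0.0464). The Tyrobp call was lost in 8 and the Csf1r call in 10 of the 12 leave-out fits, and without LPS library 1 at 72 h the list had 1 call. Irf8, a factor of monocyte and dendritic fate, was at -1.64 (edgeR adjusted p = 0.0647) and Spi1, the myeloid factor PU.1, at -0.06, and neither passed. Among those with positive values, Csf2rb, the shared chain of the GM-CSF receptor, was at 0.86 (SE 0.468, edgeR adjusted p = 0.278) and did not pass. Pld4, an exonuclease of endolysosomes, measured 123, 131 and 192 CPM with LPS at 72 h and 39, 29 and 63.4 CPM with the antibody, with an interaction of -2.58 (SE 0.483, edgeR adjusted p = 0.0104). Rnase6, a secreted ribonuclease of myeloid cells, was at -1.93 (SE 0.517, edgeR adjusted p = 0.0396).

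Of 15 dendritic cell markers 3 passed lower (Itgax, Cd209a and Cox6a2) and 0 higher, against 2.32% and 4.03% of all genes. The list's median was -1.64. Itgax, the CD11c integrin chain, measured 38.9, 25.6 and 40.1 CPM with LPS at 72 h and 5.55, 10.2 and 10.7 CPM with the antibody (interaction -2.15, SE 0.476, edgeR adjusted p = 0.0177). Cd209a was at 0 CPM in all 3 LPS libraries at 24 h and at 1.01 to 2.27 CPM at 72 h, and no fold is given. The list had 0 calls without LPS library 1 at 72 h. Summed over the 15 markers, the level was 515 to 769.6 CPM with LPS at 24 h and 1330 to 1765 CPM at 72 h, and with the antibody 606.1 to 908.5 CPM and 746.3 to 781.8 CPM. Of the defining markers, Siglech and Clec9a were above 0 in every library and Xcr1 was at 0 in antibody library 2 at 24 h. Macrophage markers summed to 380.6 to 426.3 CPM and 709 to 992.1 CPM with LPS at the 2 times and to 388.9 to 655.2 CPM and 329.2 to 859.6 CPM with the antibody. Of 20, 1 passed (Csf1r, lower), while 15 had positive values, with a median of 1.46, or -0.61 without antibody library 2 at 72 h. Vsig4 was at 0 in all LPS libraries of both times and in the antibody libraries at 24 h. Markers of T and NK cells had 17 of 18 negative values and 0 calls by edgeR (6 lower at an unadjusted p under 0.05), with sums of 199.2 to 326.8 CPM with LPS at 72 h and 117.3 to 202.3 CPM with the antibody. B cell markers had 12 of 13 negative values (median -0.88) and 0 calls by edgeR (2 lower at an unadjusted p under 0.05), with sums of 92.08 to 242.3 CPM and 50.49 to 135.4 CPM. Plasma cell markers had 7 of 8 negative values (median -0.95) and 0 calls by edgeR (2 lower at an unadjusted p under 0.05), with sums of 284.4 to 464.5 CPM and 159.2 to 524.1 CPM. At an unadjusted p under 0.05, 1658 of all 14920 genes were lower. None of the B or plasma cell markers was at 0 in all libraries of a group. What part these marker levels have in the class II, lymphoid and myeloid results was not tested.

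Lysosomal proteins, another list added after the values had been seen, had 8 of 41 genes lower and 0 higher (median -0.45). Of all genes 2.32% passed lower and 4.03% higher. Sgsh, which degrades heparan sulfate, measured 41.5, 32.1 and 35.8 CPM with LPS at 72 h and 9.42, 16.7 and 14.9 CPM with the antibody, with an interaction of -1.98 (SE 0.386, edgeR adjusted p = 0.0121). Laptm5, a lysosomal membrane protein of blood cells, was at -0.90 (SE 0.168, edgeR adjusted p = 0.0104) and Psap, the precursor of the saposins, at -1.55 (SE 0.407, edgeR adjusted p = 0.0364). The list had 4 calls without LPS library 1 at 24 h, 3 without LPS library 1 at 72 h and 3 without both antibody libraries numbered 1.

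Lymphoid priming genes had few calls, and genes of stem cell self-renewal had none. Of 17 lymphoid priming genes 2 passed lower, among them Lsp1, and 0 higher, against 2.32% and 4.03% of all genes. In this list 16 had negative values, and the median was -1.30. The list's median change over time was 1.79 without and 0.46 with the antibody. Dntt, which adds bases at immunoglobulin joints, spanned 421 to 1350 CPM with LPS at 72 h and measured 19.7, 421 and 259 CPM with the antibody, and its interaction of -3.09 (SE 1.3, edgeR adjusted p = 0.157) did not pass. Flt3, a receptor of multipotent and lymphoid progenitors, measured 71.4, 312 and 196 CPM with the antibody at 72 h against 619, 472 and 399 CPM without it. Its groups did not overlap, and its interaction of -1.93 (SE 0.641, edgeR adjusted p = 0.0796) did not pass.

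Of 29 genes of stem cell self-renewal 0 passed by edgeR. There were 5 lower and 0 higher at an unadjusted p under 0.05, against 1658 and 1958 of all 14920 genes. In the list positive values were found in 9 and negative ones in 20, with a median of -0.35. Procr, a marker of long-term stem cells, measured 16.5, 10.1 and 5.34 CPM with LPS at 72 h and 5.97, 5.98 and 6.44 CPM with the antibody, so the groups overlapped (interaction -1.71, SE 0.502, edgeR adjusted p = 0.0542). Mecom (-1.43, SE 0.678), Hlf (-1.15, SE 0.707) and Meis1 (-0.67, SE 0.369), factors of stem cell identity, did not pass, nor did Cd34 (-0.74, SE 0.343) or Kit (0.08, SE 0.387). The summed level of the 11 stem and progenitor markers was 2753 to 3223 CPM with LPS at 72 h and 2047 to 2740 CPM with the antibody, and its part in these results was not tested. Of 19 regulators of quiescence 1 passed, a count near the 6.35% of all genes called in either direction. This was the antiproliferative gene Btg2, at -1.65 (SE 0.342, edgeR adjusted p = 0.0142). It measured 49.8, 48.3 and 40.5 CPM with LPS at 72 h and 17.7, 18.7 and 14.6 CPM with the antibody, the latter near the 24 h values of 9.53 to 17.7 CPM. Its call was lost without both antibody libraries numbered 1, as was each call of the dendritic list.

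**Figure D4:**
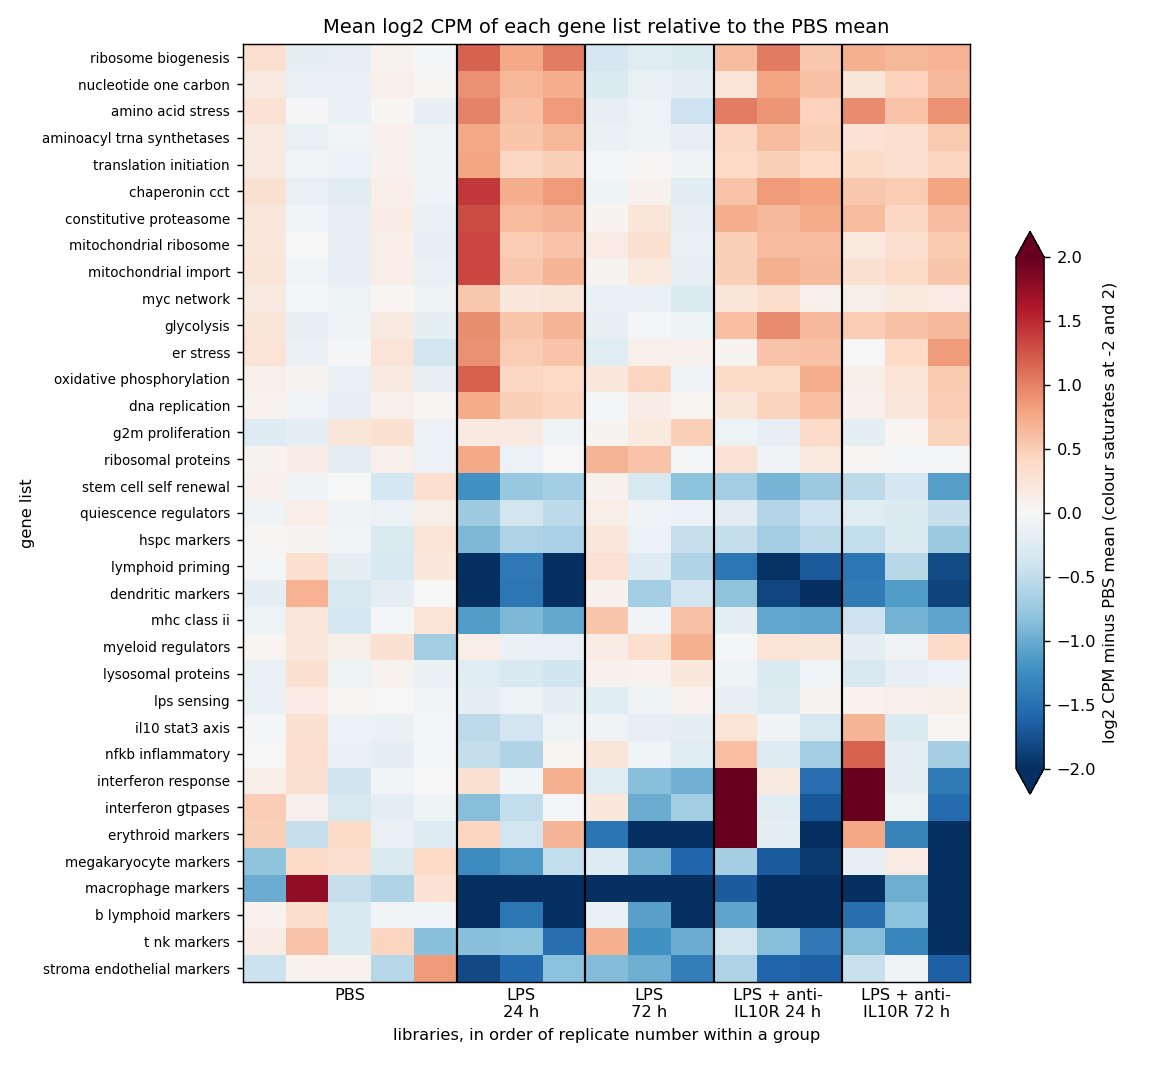
Each cell is the mean log2 CPM of a gene list in 1 of the 17 libraries minus its mean in the PBS libraries, and the color saturates at -2 and 2. At 72 h ribosome biogenesis lies at 0.67 to 0.72 in the antibody libraries and -0.34 to -0.25 in the LPS libraries, and the interferon and erythroid rows differ by library within the antibody groups.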

How the data were processed

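RNA was measured in 17 libraries of sorted mouse stem and progenitor cells, of which 12 enter the interaction. The authors deposited 1 table of raw counts per gene for 35321 genes. The submitters' processing notes name HISAT2 2.2.0, Subread, featureCounts 2.1.1, R 4.3.2, DESeq2 and the build GRCm38, without roles, and the gene annotation and strand setting are not given in the sources used here.

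Counts were tested with edgeR 4.0.16 in R 4.3.3 (quasi-likelihood, TMM scaling, 1 term per group, all 17 libraries sharing the spread) after filterByExpr (minimum count 10, minimum total 15), which kept 14920 genes and 99.9% of counts. Calls had a Benjamini-Hochberg adjusted p under 0.05 over all tested genes. For the interaction, 4.03% of all tested genes passed higher and 2.32% lower. Each list's count is to be read against these shares. CPM use TMM-scaled totals, and log2 levels a prior count of 2. The procedure was tested on simulated data. Alternatives used DESeq2 1.42.0, limma 3.58.1 (voom), other scalings, no filter, fewer libraries and each library left out. Of genes with at least median expression the 10 largest called interactions each way were named, and of each list the 3 smallest p and the 2 highest levels. Others, such as Mirt1, Lat2 and Psmd1, were named after their values were seen. The comparison, its 32 lists and the alternatives were chosen with earlier results of these data known, and 8 lists were added after seeing the values. Symbols come from GRCm38 tables, and promoters from RefSeq. The values of 1 called gene of the lymphoid priming list are not reported here.

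Same-numbered libraries were compared over 18 pairs of groups and numbers. Correlations of their deviations from group means were -0.415 to 0.723, with 7 over 0.1, so the numbers were not taken as pairs. The antibody libraries of 24 h and 72 h correlated at 0.723 for number 1, -0.0217 for number 2 and 0.697 for number 3, and the labels do not say why. Without pairs, such shared differences count as spread in the change over time with the antibody. With the number as a block over the 12 LPS libraries, 329 genes had an unadjusted edgeR p under 0.05 for that change. Without the block it was 344.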

Additional observations from a re-analysis of the deposited data

Results flagged for a closer look

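The antibody effect differed between 24 h and 72 h in 947 genes by the interaction test of edgeR, and the 20 well expressed genes with the largest differences are given here as the effect at 72 h minus that at 24 h on the log2 scale. On the positive side were Asns (2.12), Snhg3 (1.98), Odc1 (1.88), Hspd1 (1.87), Ak4 (1.85), Gm17300 (1.84), Slc16a1 (1.81), Ndufaf4 (1.79), Lyar (1.75) and Slc7a5 (1.74). On the negative side were Ahnak (-2.68), Pld4 (-2.58), Gsn (-2.27), Evl (-2.24), Il10ra (-2.12), Lsp1 (-2.07), Ccng2 (-2), Itgb7 (-1.96), Cnn3 (-1.95) and Rnase6 (-1.93). The rule that named them selected on the same difference, so these sizes are a description.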

How the results depend on the processing

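Interaction calls (947) numbered 929 with DESeq2's size factors in edgeR, 875 with upper-quartile scaling, 617 with no filter, 286 in the fit of 12 libraries, 1673 by DESeq2 and 1585 by voom with quality weights. Leaving out 1 library gave 231 to 1544 calls, leaving out both antibody libraries numbered 1 gave 336 and both numbered 3 gave 7. The last 2 alternatives were chosen after seeing the data. With the replicate number as a block over 12 libraries there were 44 interaction calls and 1143 for the antibody effect at 72 h, but the numbers were not taken as pairs. The antibody effect at 72 h (2256 calls) had 1329 in the fit of 12 libraries, 4433 by voom and 769 to 2810 with 1 library left out. LPS at 24 h against PBS had 3361 to 5953 calls with 1 library left out. DESeq2 gave 2 calls over time with the antibody, 1 for the antibody at 24 h and 1 recovery gene moving oppositely, where edgeR gave 0 each. The ratio of the changes was 0.022 to 0.2 with 1 library left out and 0.235 without both antibody libraries numbered 3. The position of LPS at 72 h was 0.999 over genes above the median expression. The cause of these shifts was not tested. The signs of all 947 genes held wherever they were tested, and no named gene that passed changed sign. Selection on the same contrast and the shared libraries make this a description. Several list medians did change sign, such as those of oxidative phosphorylation (0.27 to -0.13 without LPS library 1 at 24 h) and of the interferon, erythroid and macrophage lists. With 3 libraries a group, depth was not varied, and a missed call does not show equal change.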

Other observations

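Genes of cell division gave few calls. Of 24 genes of the G2 and M phases 0 passed by edgeR (0 at an unadjusted p under 0.05), with a median interaction of -0.05. Mki67, a marker of cycling cells, measured 657, 727 and 1330 CPM with LPS at 72 h and 810, 796 and 890 CPM with the antibody, and the groups overlapped. In DNA replication 24 of 25 genes had positive values (median 0.345), and 1 passed, a share near the 4.03% of all genes called higher. It was Orc1, a subunit of the origin recognition complex, which measured 12.8, 15.4 and 15.5 CPM with LPS at 72 h and 27.8, 31.2 and 32.3 CPM with the antibody, with no overlap, and its interaction was 1.29 (SE 0.207, edgeR adjusted p = 0.00831). Of 16 targets of p53, 1 passed in each direction: the nuclease Aen (1.27, SE 0.301) and the stress sensor Sesn1 (-1.44, SE 0.353). Of all genes 4.03% passed higher and 2.32% lower, so these are small counts.

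Inflammatory genes gave 0 calls by edgeR. At an unadjusted p under 0.05, 1958 of all 14920 genes were higher and 1658 lower. In the NF-kB list 2 of 21 genes were higher and 2 lower at an unadjusted p under 0.05, with a median of -0.13, and on leaving out 1 library the median took either sign (0.39 without antibody library 1 at 24 h and -0.66 without antibody library 1 at 72 h). In the interferon-response list 1 of 29 was higher, and the median of 1.10 became -0.43 without antibody library 1 at 72 h and 2.55 without antibody library 1 at 24 h. Cxcl10, an interferon-induced chemokine, measured 55.1, 6.72 and 1.3 CPM at 24 h and 429, 3.74 and 0.849 CPM at 72 h with the antibody, highest in library 1 each time. Ly6a, the Sca-1 antigen, which interferon also raises, measured 530, 266 and 58.1 CPM and 632, 84.9 and 64.7 CPM in the same libraries.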
